A study of Mus musculus with 6 samples.

Results

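The transcripts of the mouse mitochondrial genome were examined in satellite cells, the stem cells of skeletal muscle, by taking all rows of the count table whose name starts with "mt-" or "mt.". The rule found 37 of 45527 named rows: 13 messenger RNAs (mRNAs), 2 ribosomal RNAs (rRNAs) and 22 transfer RNAs (tRNAs). The rule uses row names alone, but it was chosen with earlier results of these data known. The libraries came from satellite cells sorted by yellow fluorescent protein 24 h after an injection of 30 µl of cardiotoxin, which injures muscle, into the lower hindlimb muscles. The 3 controls were Pax7creER:Paxbp1flox/+:R26R-YFP and the 3 knockout libraries, labelled Paxbp1-iKO, were Pax7creER:Paxbp1flox/flox:R26R-YFP. Both groups therefore carried the Pax7-driven inducible Cre, the Cre-activated fluorescent reporter and at least 1 floxed allele of Paxbp1, which encodes a partner of the transcription factors Pax3 and Pax7. The sources used here give no ages. The study's design speaks of 3 pairs of mice, but no label says which mouse or pair a library came from, and the p-values cover the spread among libraries.

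The mitochondrial genome is a small circle that is transcribed on both strands into long precursors, from a heavy-strand and a light-strand promoter. In most places tRNAs stand between the other genes, and their excision frees the rRNAs and mRNAs. The mRNAs encode core subunits of complexes I, III and IV of the respiratory chain and of ATP synthase (complex V), and the rRNAs belong to the mitochondrial ribosome. The proteins that transcribe, process and translate these RNAs are encoded in the nucleus.

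Library totals lay between 23327359 and 28050748 counts. Paxbp1 itself was higher in the libraries labelled as knockouts (68.6 ± 6.81 CPM in controls, 110.2 ± 15.4 CPM in those libraries, where CPM are counts scaled to the library size, a log2 difference of 0.68 ± 0.13, adjusted p = 0.00954). Counts over the whole gene cannot show whether the floxed part was lost, so the label could not be checked from this rise. For this reason "iKO-labelled" is used below, and each direction is drawn from the labels. All 10 satellite cell markers were present, with a summed level of 9661 to 10160 CPM in controls and 12190 to 12770 CPM in the iKO-labelled libraries (6 rose and 3 fell). Markers of myofibres, which are rich in mitochondria, summed to 28.8 to 80.0 CPM in controls and 19.5 to 30.1 CPM in the iKO-labelled libraries; all 10 had a count, and 1 of 8 tested fell (Acta1, adjusted p = 0.0379). Summed markers of macrophages and neutrophils (190.8 to 266 against 186.9 to 314 CPM), endothelium (71.7 to 279.7 against 130 to 160.2 CPM), fibro-adipogenic cells (1273 to 1367 against 1119 to 1444 CPM) and erythroid cells (3.60 to 8.20 against 5.75 to 17.8 CPM) overlapped between groups. The part of these cells in the results was not tested. In bulk samples, fewer cells of a type and less RNA per cell cannot be told apart.

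Sequences are shown first where they bear on what could be counted; they are from the GENCODE M21 transcripts (GRCm38) and are written in the sense of the plus-strand transcript unless stated. Reads were counted per gene, and neighbouring frames overlap by more than 1 base at 3 places. The capitals mark the bases that belong to both genes, 43 for mt-Atp8 and mt-Atp6 (chrM:7907-7989), 7 for mt-Nd4l and mt-Nd4 (chrM:10147-10193) and 14 for mt-Nd5 and mt-Nd6 (chrM:13532-13585), with mt-Nd6 on the opposite strand.
mt-Atp8/mt-Atp6: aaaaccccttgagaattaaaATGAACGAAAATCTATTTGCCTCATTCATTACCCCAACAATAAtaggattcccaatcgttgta
mt-Nd4l/mt-Nd4: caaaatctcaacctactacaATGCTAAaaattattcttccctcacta
mt-Nd5/mt-Nd6: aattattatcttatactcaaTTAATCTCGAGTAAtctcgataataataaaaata

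The boundary at which rRNA and mRNA parted in these data is the tRNA gene mt-Tl1 (capitals), between the end of mt-Rnr2 and the start of mt-Nd1 (chrM:2646-2780, plus strand).
mt-Rnr2/mt-Tl1/mt-Nd1: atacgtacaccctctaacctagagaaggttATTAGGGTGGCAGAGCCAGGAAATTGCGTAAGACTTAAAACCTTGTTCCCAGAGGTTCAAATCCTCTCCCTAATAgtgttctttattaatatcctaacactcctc

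Mitochondrial mRNAs were lower in the iKO-labelled libraries, while the rRNAs were not. The 13 mRNAs took 1.607%, 1.601% and 1.488% of the counts in the 3 controls and 0.430%, 0.419% and 0.413% in the 3 iKO-labelled libraries, a 4.08-fold lower summed CPM. The rRNAs took 1.007%, 0.930% and 0.960% in the controls and 1.296%, 1.161% and 1.025% in the iKO-labelled libraries, with overlapping CPM. Each mRNA count in a control thus stood beside 0.581 to 0.645 rRNA counts, and each in an iKO-labelled library beside 2.48 to 3.02. The libraries were primed on poly(A), so counts of mRNAs, rRNAs and tRNAs may depend on priming as well as on level. The part of priming was not tested. Of the 13 mRNAs, 11 fell, none rose and 2 did not pass the test, where 12.3% of all 16252 tested genes fell and 8.15% rose (edgeR's quasi-likelihood test, adjusted p under 0.05 over all tested genes). Their median log2 fold change was -1.68, against 0.02 for all tested genes. For 13 of 13 every iKO-labelled library lay below every control, as it did for 20.9% of all tested genes (groups apart in either direction, 39.8%). All 13 also had a log2 fold change of -1 or below, as had 7.82% of all tested genes. For mt-Nd3 this depended on how reads were assigned, with -0.41 when its copy on chromosome 1 (described below) was added.

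**Figure D1:**
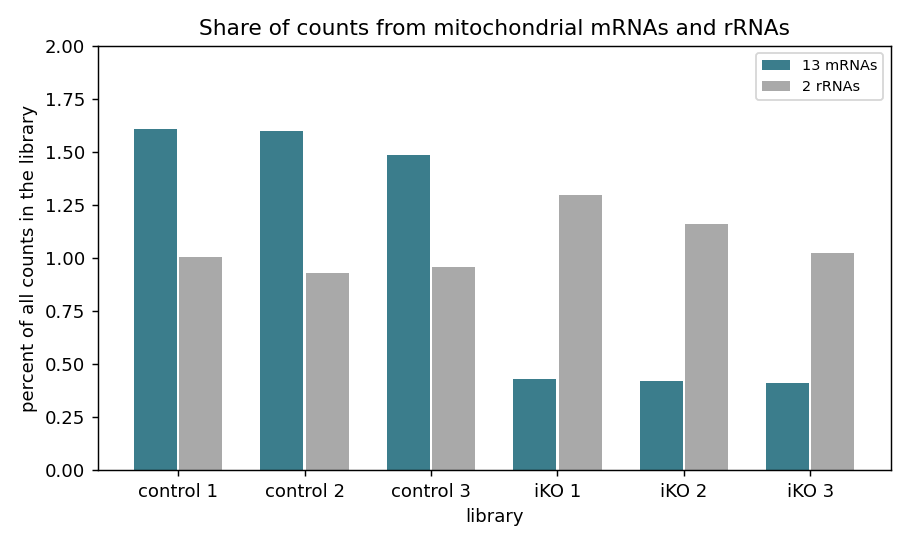
Percent of all counts in each library (vertical axis) taken by the 13 mitochondrial mRNAs and the 2 rRNAs, for the 6 libraries (horizontal axis). The mRNA bars stand between 1.488% and 1.607% in the controls and between 0.413% and 0.430% in the iKO-labelled libraries, and the rRNA bars between 0.930% and 1.007% and between 1.025% and 1.296%.

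Complex I, the NADH dehydrogenase through which most electrons enter the chain, has 7 mitochondrially encoded subunits, and 6 of their mRNAs fell. mt-Nd1, which encodes a membrane subunit near the quinone site, stood at 4941, 4868 and 4880.3 CPM in the controls and at 922, 866 and 855 CPM in the iKO-labelled libraries. Its groups lay far apart, and its fall was the largest of the 13 (-2.47 ± 0.052, adjusted p = 6.6e-07). mt-Nd4, an antiporter-like subunit, went from 913, 836 and 794 to 217, 202 and 193 CPM (-2.06 ± 0.081, adjusted p = 1.9e-05). mt-Nd2, another antiporter-like subunit, went from 443, 479.8 and 381 to 125, 105 and 108 CPM (-1.95 ± 0.11, adjusted p = 6.9e-05). mt-Nd5, the third of that kind, went from 1229.5, 1153 and 1067 to 412, 354 and 365 CPM (-1.61 ± 0.084, adjusted p = 5.2e-05).

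The remaining complex I mRNAs were shorter or lay on the other strand. mt-Nd4l, a small membrane subunit, had 148, 138 and 137 counts in the controls and 53, 49 and 36 in the iKO-labelled libraries (-1.78 ± 0.34, adjusted p = 0.00885). mt-Nd3, whose loop lies at the quinone site, had 86, 92 and 100 counts against 66, 38 and 43. The groups did not overlap, but the difference missed the threshold (-1.07 ± 0.41, adjusted p = 0.11). mt-Nd6, the only mRNA of the light-strand promoter, went from 154, 158 and 137 CPM to 68.4, 59.9 and 72.1 CPM (-1.16 ± 0.11, adjusted p = 4.4e-04), the smallest of the 11 falls. The libraries keep no strand information, so reads in the mt-Nd6 row may come from either strand. The 7 complex I mRNAs together were 4.55-fold lower and had a median of -1.78.

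Complex III, which passes electrons to cytochrome c, has a single mitochondrially encoded subunit, cytochrome b. Its mRNA mt-Cytb stood at 4495, 4563 and 4021 CPM in the controls and at 1411, 1355 and 1327 CPM in the iKO-labelled libraries (log2 change -1.68 ± 0.064, adjusted p = 1.8e-05). Among the mRNAs mt-Nd1 had the highest CPM in the 3 controls and mt-Cytb in the 3 iKO-labelled libraries.

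Complex IV, cytochrome c oxidase, holds the products of mt-Co1, mt-Co2 and mt-Co3, its catalytic core, and all 3 mRNAs fell. mt-Co1, the subunit with the oxygen-reducing centre, went from 4238, 4300.3 and 3857 CPM to 878, 927 and 845 CPM (-2.23 ± 0.065, adjusted p = 4.5e-06). mt-Co3 fell by a like amount, from 75.3, 81.4 and 73.6 CPM to 15.6, 16.1 and 16.7 CPM (-2.25 ± 0.12, adjusted p = 5.2e-05). mt-Co2, which accepts electrons from cytochrome c, fell less, from 73.5, 71.4 and 65.6 CPM to 23.9, 23.2 and 22.6 CPM (-1.59 ± 0.12, adjusted p = 1.6e-04).

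Complex V makes ATP from the proton gradient. mt-Atp6, which encodes subunit a of its proton channel, went from 302, 291 and 269.6 CPM to 91.0, 89.3 and 89.4 CPM (-1.68 ± 0.078, adjusted p = 3.6e-05). mt-Atp8, a short membrane subunit, had 38, 41 and 37 counts against 14, 22 and 19. These groups did not overlap, but with so few counts the difference missed the threshold (-1.22 ± 0.59, adjusted p = 0.197).

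**Figure D2:**
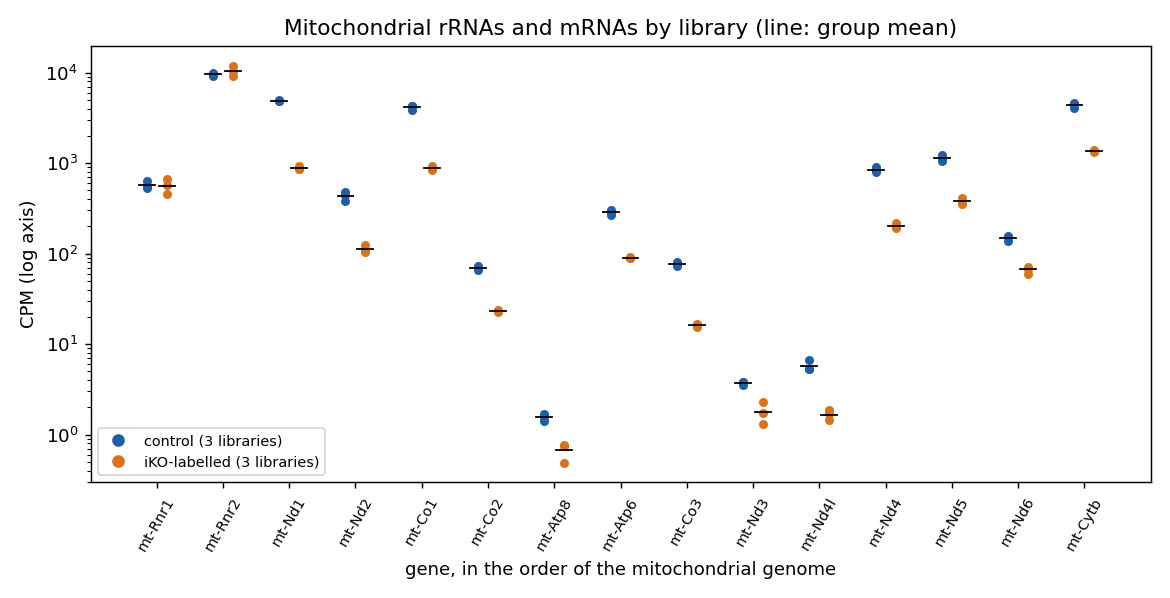
CPM on a log axis (vertical) of the 2 rRNAs and 13 mRNAs in the order of the genome (horizontal); each point is a library and each line a group mean. The control points of every mRNA lie above all of its iKO-labelled points, and the points of both rRNAs overlap.

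The falls differed in size, so the makeup of the mRNA counts shifted. Complex I mRNAs made up 45.6%, 44.6% and 46.7% of the mRNA counts in the controls and 41.9%, 39.7% and 40.9% in the iKO-labelled libraries. The share of complex III was 26.5% ± 0.652 in the controls against 33.9% ± 0.106 in the others, and that of complex V 1.76% ± 0.033 and 2.25% ± 0.0592. The share of complex IV was 26.1% ± 0.401 and 22.95% ± 1.10. None of these 4 shares overlapped between groups. They are sums over members and were given no test. Rows of complexes I, IV and V share sequence with nuclear copies (described below), so these shares may depend on how reads were assigned. In control 1, mt-Atp6 had 6748 counts and its copy Gm10925 had 3366. In both groups mt-Nd1, mt-Co1 and mt-Cytb held most of the mRNA counts, 81.0% to 82.0% in the controls and 77.0% to 78.7% in the iKO-labelled libraries.

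**Figure D3:**
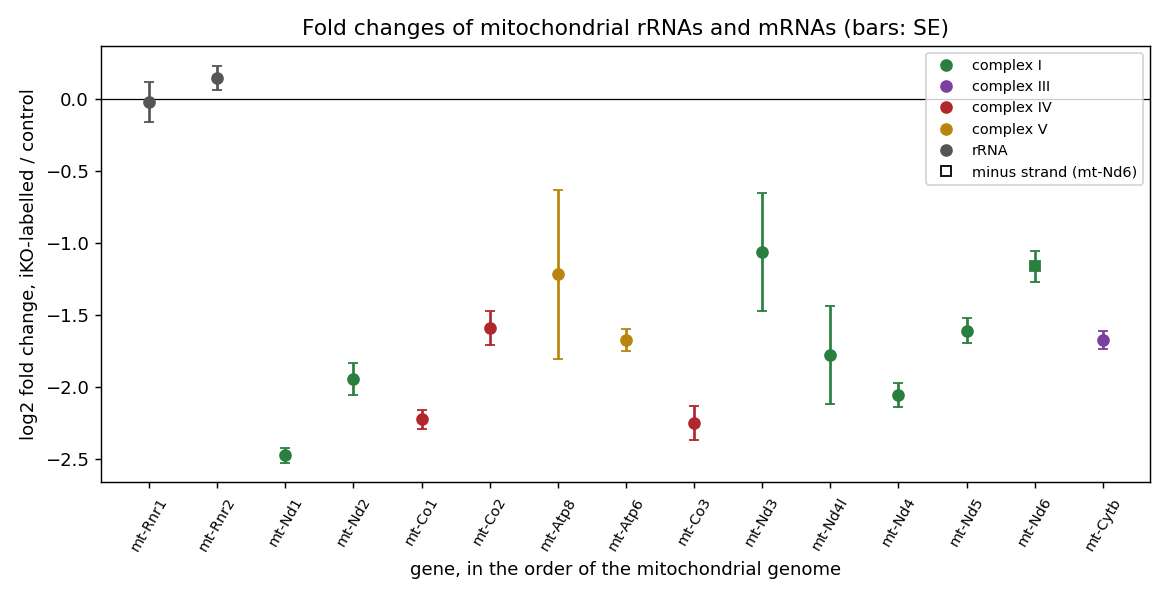
Log2 fold change of the iKO-labelled against the control libraries (vertical axis, bars are SE) for the rRNAs and mRNAs in the order of the genome (horizontal axis), coloured by complex. The mRNAs lie between -2.47 (mt-Nd1) and -1.07 (mt-Nd3), and the rRNAs at 0.14 and -0.025.

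The rRNAs are the structural RNAs of the mitochondrial ribosome and come first on the heavy-strand transcript. mt-Rnr2, the large-subunit rRNA, had 9936, 9242 and 9492 CPM in the controls and 11909, 10517 and 9229 CPM in the iKO-labelled libraries (log2 change 0.14 ± 0.086, adjusted p = 0.301). The groups overlapped, and under scaling by library totals the test was passed (log2 fold change 0.27, adjusted p = 0.0419). mt-Rnr1, the small-subunit rRNA, had 641, 527 and 544 CPM in the controls and 663, 566 and 453 CPM in the iKO-labelled libraries (log2 change -0.025 ± 0.14, adjusted p = 0.927). Its sign turned under 5 of 20 alternatives, with values up to 0.11. Per length mt-Rnr2 also exceeded mt-Rnr1, with 5895 ± 166 against 583 ± 56.7 FPKM (fragments scaled to length and depth) in the controls, although a ribosome holds 1 copy of each. The part of poly(A) priming in this difference was not tested.

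Ratios of neighbouring genes within a library do not depend on scaling, and 6 pairs chosen by position were compared by an exact two-sided permutation test. With 3 libraries against 3 the smallest p is 0.1, so no pair can pass 0.05, and the lowest p adjusted over the 6 pairs was 0.12. The log2 ratio of mt-Rnr2 to mt-Nd1, which flank mt-Tl1, was 1.01, 0.925 and 0.960 in the controls and 3.69, 3.60 and 3.43 in the iKO-labelled libraries, a difference of 2.61 or 6.11-fold (exact p = 0.1). The log2 ratio of the light-strand mt-Nd6 to its heavy-strand neighbour mt-Nd5 was -2.999, -2.86 and -2.96 in the controls and -2.59, -2.56 and -2.34 in the iKO-labelled libraries, a difference of 0.445 without overlap (exact p = 0.1). As a share of mRNA counts mt-Nd6 took 0.879% to 0.942% in the controls and 1.497% to 1.85% in the iKO-labelled libraries. Because the libraries are unstranded, these values compare rows and cannot tell light-strand from heavy-strand transcripts.

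The other 4 pairs differed less or involved rows with few counts. The ratio of mt-Nd3 to mt-Co3 was 1.14 higher on the log2 scale in the iKO-labelled libraries (exact p = 0.1), and that of mt-Nd4l to mt-Nd4 was 0.271 higher (exact p = 0.1). The ratio of mt-Rnr1 to mt-Rnr2 was lower by a log2 difference of -0.172 (exact p = 0.1). These 3 did not overlap between groups. The ratio of mt-Atp8 to mt-Atp6 overlapped (difference 0.425, exact p = 0.3).

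The tRNA rows held few counts in these poly(A)-primed libraries. Together the 22 rows took 0.000634% to 0.000673% of counts in the controls and 0.000596% to 0.000936% in the iKO-labelled libraries, which overlap. At 4 rows, mt-Td, mt-Tk, mt-Tg and mt-Tr, no library had a count, which allows up to 3 counts or 0.102 to 0.134 CPM in a library by counting error alone. That bound does not cover reads that also match nuclear copies and may not have been counted. A further 13 rows had 30 counts or fewer over the 6 libraries, and 18 of the 22 rows did not pass the count filter. The 4 tested tRNAs were mt-Tl1, mt-Tc, mt-Te and mt-Tp, and none was called by edgeR's quasi-likelihood test.

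mt-Tl1 and mt-Tp, the tRNA rows with the most counts, went opposite ways. mt-Tl1, the leucine tRNA shown above, had 32, 39 and 33 counts in the controls and 19, 17 and 9 in the iKO-labelled libraries (-1.37 ± 0.63, adjusted p = 0.178), a difference that passed with limma on log2 FPKM (lowest adjusted p = 0.00127). mt-Tp, the proline tRNA, is the first gene behind the light-strand promoter, and its whole gene is printed in its own sense because it was the member with most counts among tRNAs in all 6 libraries (chrM:15356-15422, minus strand).
mt-Tp: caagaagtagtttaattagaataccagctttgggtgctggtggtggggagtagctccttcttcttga

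It had 81, 86 and 86 counts in the controls and 156, 117 and 139 in the iKO-labelled libraries (0.56 ± 0.32, adjusted p = 0.275). The groups did not overlap. The difference passed with limma on log2(FPKM + 1) when genes under a mean of 1 were removed (adjusted p = 0.0122) and was 0.011 with GC and length trends removed. Its share of tRNA counts was 47.5% to 51.3% in the controls and 60.2% to 72.4% in the iKO-labelled libraries. mt-Te, the next tRNA gene on the light-strand transcript, had 8, 15 and 13 counts against 12, 1 and 2 (-1.39 ± 1.04, adjusted p = 0.414), and mt-Tc had 13, 13 and 16 against 14, 10 and 9 (-0.50 ± 0.71, adjusted p = 0.69).

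Some untested rows had more counts in the iKO-labelled libraries although the mRNAs beside them fell. mt-Th, mt-Ts2 and mt-Tl2, the histidine, serine and leucine tRNAs between mt-Nd4 and mt-Nd5, summed to 2, 3 and 1 counts in the controls and 30, 12 and 7 in the iKO-labelled libraries. mt-Th alone had none in the controls and 12, 7 and 2 in the iKO-labelled libraries. Against a floor of 3 counts over the controls, its summed count was 6.30-fold higher. mt-Tt, the threonine tRNA between mt-Cytb and mt-Tp, had 1, 0 and 0 counts against 7, 4 and 7. mt-Ts1 went the other way, with 2, 5 and 1 counts against none, 2.96-fold lower against the same floor. Both folds take the counts of the group with reads as exact. They allow neither for its counting error nor for the spread among libraries, so they are not bounds. Smart-Seq2 keeps no strand information, so reads in any tRNA row, mt-Tp and mt-Te included, may come from either strand.

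**Figure D4:**
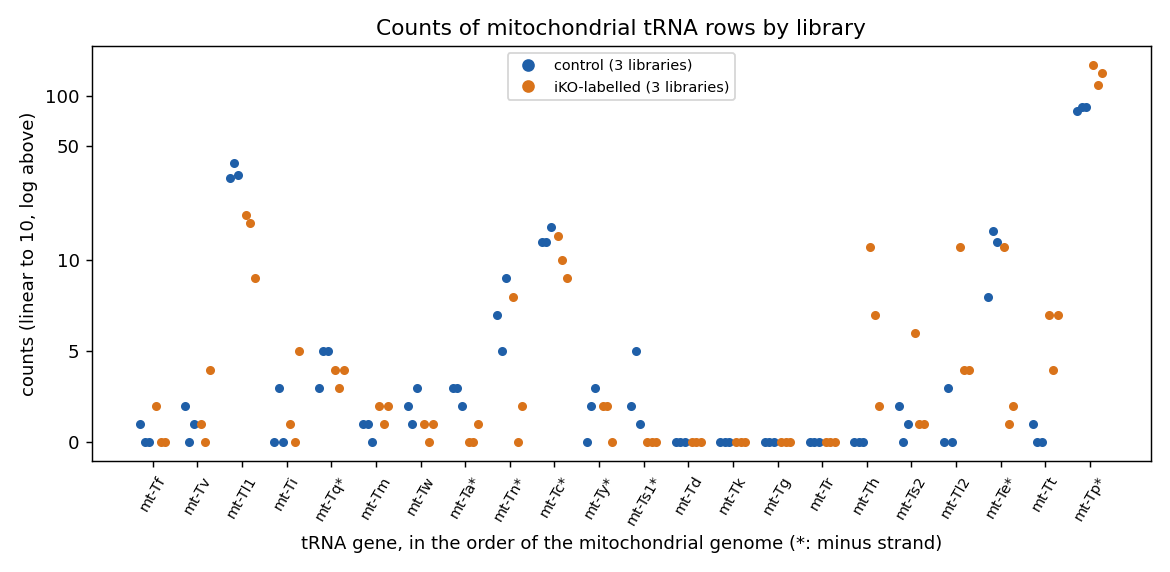
Raw counts (vertical axis, linear up to 10 and logarithmic above) of the 22 tRNA rows in the order of the genome (horizontal axis); each point is a library. mt-Tp and mt-Tl1 stand above the other rows, mt-Tp higher and mt-Tl1 lower in the iKO-labelled libraries, and 4 rows are at 0 throughout.

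The levels of the mRNAs per length differed by 666-fold in the controls, from 4993 ± 17.8 FPKM for mt-Nd1 and 3719 ± 236 for mt-Cytb, through 2609 ± 141 for mt-Co1, to 10.5 ± 0.425 for mt-Nd3 and 7.49 ± 0.610 for mt-Atp8. Between them stood mt-Nd5 (615 ± 37.7), mt-Nd4 (600.2 ± 36.9), mt-Atp6 (412 ± 19.99), mt-Nd2 (409 ± 46.4), mt-Nd6 (281 ± 20.4), mt-Co2 (100.1 ± 5.08), mt-Co3 (95.6 ± 5.35) and mt-Nd4l (18.8 ± 2.31). The neighbours mt-Nd5 and mt-Nd4, mt-Atp6 and mt-Nd2, and mt-Co2 and mt-Co3 in this order did not differ beyond their SD. Across the 13 mRNAs, Spearman's rho of the log2 fold change with the control FPKM was -0.51, a description of genes that share libraries and a precursor.

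Nuclear copies of mitochondrial sequence, left by past insertions, share much of some of these mRNAs. Every stretch of 50 bases was looked up in the annotated transcripts of nuclear genes, on both strands. mt-Nd1, mt-Nd6, mt-Cytb and mt-Atp8 had no such stretch there, mt-Nd2 and mt-Nd5 had 8.19% and 7.61%, mt-Co1 51.1% and mt-Nd4 62.2%. In mt-Co2, mt-Atp6, mt-Co3, mt-Nd3 and mt-Nd4l between 98.0% and 100% of the stretches were also in a nuclear transcript. The source was mainly a row of annotated pseudogenes on the minus strand of chromosome 1, from 24611535 to 24616197 (GRCm38), which copy the end of mt-Co1 and the genes up to most of mt-Nd4. The 4 tRNA genes at 0 throughout lie within this part of the circle, as does mt-Ts1, which had 8 counts over the controls. None of these 5 tRNA genes had a stretch of 50 bases in an annotated nuclear transcript. Only annotated transcripts were searched. Copies of these 5 tRNA genes and of mt-Atp8 may lie unannotated between the pseudogenes, and they and other nuclear copies were not analysed here.

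The copy of mt-Nd3, Gm28438, matches it over 345 bases but for T3C, counted from the first base of mt-Nd3. Their first 40 bases show how little there is to tell reads apart, with the base that differs in capitals (chrM:9459-9498, plus strand, and chr1:24613080-24613119, minus strand).
mt-Nd3: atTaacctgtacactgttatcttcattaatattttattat
Gm28438: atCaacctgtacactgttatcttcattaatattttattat

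Both the members and these copies held counts. Gm28438 had 181, 172 and 222 counts in the controls and 218, 171 and 175 in the iKO-labelled libraries, more than mt-Nd3 in all 6 and with no called change (-0.18 ± 0.25, adjusted p = 0.688). Gm10222, the copy of mt-Nd4l, had 114, 131 and 118 counts against 93, 68 and 45 and was not called (-0.99 ± 0.36, adjusted p = 0.0978). Gm28661, identical to mt-Co2 over 681 bases, had 878, 998 and 958 counts against 362, 388 and 272 (-1.63 ± 0.15, adjusted p = 4.1e-04). Gm28437, identical to mt-Co3 over 783 bases, changed by -2.08 ± 0.14, and Gm10925, identical to mt-Atp6 over 678 bases, by -1.70 ± 0.10. The copies of mt-Nd4 (Gm28439, -2.16 ± 0.23) and mt-Co1 (Gm29216, -2.11 ± 0.12) fell too. On chromosome 2, Gm13340, a copy of mt-Co1, fell (-1.94 ± 0.18), whereas Gm13341, a copy of mt-Co2 (-1.63 ± 0.62, adjusted p = 0.107), and Gm13339, a copy of mt-Nd2 (-0.88 ± 0.66, adjusted p = 0.42), were not called.

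With the counts of each chromosome 1 copy added to its gene, an alternative chosen after seeing the data, mt-Nd3 stood at -0.41 ± 0.23 (adjusted p = 0.266) and mt-Nd4l at -1.36 ± 0.27 (adjusted p = 0.0102). The values of mt-Co1, mt-Co2, mt-Atp6, mt-Co3 and mt-Nd4 moved by less than 0.1, from -2.25 to -2.18 for mt-Co3. mt-Nd3 and mt-Atp8 were again the 2 mRNAs not called. mRNAs with no stretch in an annotated nuclear transcript changed by -2.47 (mt-Nd1), -1.68 (mt-Cytb), -1.22 (mt-Atp8) and -1.16 (mt-Nd6). Those shared almost whole changed by -2.25 to -1.07, ranges that overlap with or without mt-Atp8. The gene mt-Atp8 lies between mt-Co2 and mt-Atp6, whose copies are neighbours on chromosome 1. There, Gm10925 ends at 24614651 and Gm28661 starts at 24614885, which leaves room for the rest of mt-Atp8 (204 bases in all). An unannotated copy of mt-Atp8 may therefore lie there, but the sequence between these copies was not searched. The sources used here do not state how reads with several matches were treated, and the part of the copies in the levels was not tested.

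**Figure D5:**
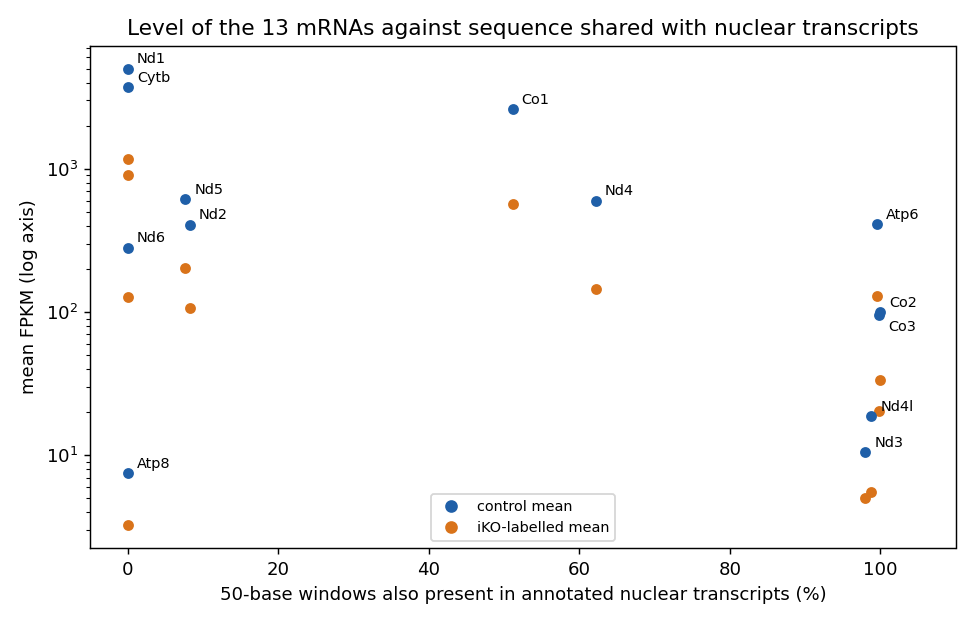
Mean FPKM on a log axis (vertical) of the 13 mRNAs against the percent of their stretches of 50 bases also present in annotated nuclear transcripts (horizontal), for each group. The 5 mRNAs on the right, shared to at least 98.0%, have 10.5 to 412 FPKM in the controls. The 4 on the left, with no stretch found in annotated transcripts, have 7.49 to 4993 FPKM. Of these, mt-Atp8 has 7.49 FPKM and may have an unannotated copy, and mt-Nd6, mt-Cytb and mt-Nd1 have 281 to 4993 FPKM.

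The annotated sequences of 10 mRNAs carry a whole stop codon. Of these, mt-Nd1 (TAG, end at 3707) and mt-Nd2 (TAG, end at 4951) overlap the tRNA genes mt-Ti and mt-Tw, which start at 3706 and 4950. Excision of those tRNAs may leave less than the whole codon on both mRNAs. The other 3 mRNAs end their reading frame with a single T, which the poly(A) tail completes to a stop codon. These ends are shown because the libraries were primed on the tail that follows the capital T (chrM:9367-9390, chrM:11521-11544 and chrM:15265-15288, plus strand).
mt-Co3: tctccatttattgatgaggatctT
mt-Nd4: aactaattacaggcctgacaataT
mt-Cytb: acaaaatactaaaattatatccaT

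These 3 changed by -2.25, -2.06 and -1.68, within the range of the others. The 13 mRNAs were rich in A and T, from 58.9% for mt-Nd4l to 68.1% for mt-Atp8.

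Nuclear genes that serve the mitochondrial genome were read from the same fit, against the background of 12.3% lower and 8.15% higher among all tested genes. Of 25 genes for the upkeep and transcription of mitochondrial DNA, 4 rose and 3 fell, with a median log2 fold change of 0.06. Polg2, the accessory subunit of the mitochondrial DNA polymerase, rose from 7.52 ± 2.46 to 18.3 ± 2.13 CPM (1.28 ± 0.27, adjusted p = 0.0129, and 0.0555 without iKO 3). Of 33 genes for processing and stability of mitochondrial RNA, 1 rose and 3 fell, with a median of -0.10. Lrpprc, which binds and stabilises mitochondrial mRNAs, fell from 130.3 ± 13.2 to 53.7 ± 8.03 CPM (-1.28 ± 0.14, adjusted p = 7.5e-04). Trmt10c, a subunit of the enzyme that cuts the 5′ ends of mitochondrial tRNAs, rose from 86.3 ± 9.23 to 133 ± 7.29 CPM (0.63 ± 0.11, adjusted p = 0.00566). Of 16 regulators of mitochondrial biogenesis only Myc was called, a growth-promoting factor that fell (-0.69 ± 0.10, adjusted p = 0.00277).

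Calls among the nuclear partners in the respiratory complexes went in both directions. For complex I, 8 of 36 fell and 3 rose (median -0.04); for complex III, 4 of 9 fell (median -0.24); for complex IV, 2 of 15 fell and 1 rose (median 0.11); and for complex V, 8 of 17 fell and 2 rose (median -0.34). The lowest value in each was -0.80 (Ndufa10, complex I), -0.99 (Cyc1, the cytochrome c1 beside cytochrome b), -0.56 (Cox5a, complex IV) and -0.77 (Atp5h, complex V), and all 4 fell (adjusted p up to 0.00583). The mitochondrial mRNAs stood at -1.07 or below (-0.41 for mt-Nd3 with its copy added), and the difference between both sets was not tested. Cox6b2, a complex IV isoform best known from testis, rose from 0.920 ± 0.565 to 4.33 ± 1.02 CPM (2.23 ± 0.56, adjusted p = 0.0266). This call was lost, with a highest adjusted p of 0.0978, without control 1, control 3, iKO 2 or iKO 3. Complex II has no mitochondrially encoded subunit, and 2 of its 4 genes fell, Sdha (-0.93 ± 0.11) and Sdhb (-0.93 ± 0.081).

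Other mitochondrial proteins gave 16 falls and no rise among 24 membrane and matrix genes (median -0.45), among them the cristae organiser Immt (-1.01 ± 0.098, adjusted p = 4.9e-04) and the citrate synthase Cs (-0.92 ± 0.094). Of 78 mitochondrial ribosomal proteins, which join the rRNAs, 18 fell and 2 rose (median -0.23); Mrpl18, of the large subunit, fell from 53.0 ± 7.04 to 17.6 ± 1.27 CPM (-1.59 ± 0.15, adjusted p = 4.8e-04). Over all these lists, fewer genes were called with any 1 library left out. Of the 257 genes tested 65 fell, and 39 without control 2, 36 without control 3, 37 without iKO 2 and 36 without iKO 3. Among all tested genes the share that fell also shrank, from 12.3% to between 7.88% and 9.64% with 1 library left out. The falls among ribosomal proteins ran from 6 to 13 with a library left out, those of complex V subunits from 3 to 7, of complex I subunits from 4 to 9, of genes for RNA processing and stability from 1 to 3, and of genes for upkeep and transcription from 0 to 2, with 1 to 5 rises in the last group. Over these lists 13 genes rose, and 2 to 8 rises were called with any 1 library removed.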

How the data were processed

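The authors deposited raw read counts per gene for 6 libraries and FPKM values for the same genes. Per the labels' protocols, RNA was reverse transcribed by Smart-Seq2, which is primed on poly(A) and is unstranded. Per the submitters' processing notes the tools were Trim Galore, STAR, featureCounts, Subread and DESeq2 with build mm10; the sources used here give neither the annotation nor the handling of multiply matching reads. The deposited FPKM follow median-of-ratios size factors (largest relative deviation 9.3e-15 over 11939 genes), and gene lengths implied for 29 members match GENCODE M21.

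Rows without a gene name (551 of 46078, 0.108% to 0.123% of counts) were left out, and 45041 names matched GENCODE M21. Counts were fitted with edgeR 4.0.16 in R 4.3.3: filterByExpr (minimum count 10, total 15), TMM factors, quasi-likelihood test on the group, Benjamini-Hochberg adjustment over 16252 genes, calls under 0.05. CPM use TMM-scaled library sizes; fold changes are log2 ± SE (size over the square root of F), levels mean ± SD (n = 3). Alternatives used limma 3.58.1 and DESeq2 1.42.0 and other scalings, filters, units and left-out libraries. The fit was tested on simulated counts. Copies were aligned with blastn 2.17.0. Named genes are Paxbp1, all mitochondrial mRNAs and rRNAs, tested tRNAs and the nuclear list members with the smallest adjusted p, of which some are given only in counts; other genes named, among them the untested tRNAs and the copies, were singled out after their values were seen. The members and lists were chosen with earlier results of these data known. mt-Atp8, mt-Nd3 and mt-Nd4l had 14 to 148 counts per library, which limits their precision. 1 gene of the nuclear lists is not reported here by name.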

Additional observations from a re-analysis of the deposited data

How the results depend on the processing

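Over 20 alternatives between 11 and 13 mitochondrial mRNAs fell, and their median log2 fold change ran from -1.84 to -1.54. mt-Atp8 and mt-Nd3 passed with limma on log2 FPKM (lowest adjusted p 0.0027 and 0.00443), and mt-Nd3 also with GC and length trends removed (adjusted p = 0.0338). mt-Rnr1 turned to 0.051 with upper-quartile factors, 0.106 with library totals, 0.043 with at least 5 CPM in 3 libraries, 0.065 without control 1 and 0.107 without iKO 3 (leaving out a library gave -0.164 to 0.107). All genes called numbered 3315, and 2053 to 2816 with a library left out (2053 without iKO 2, 2103 without iKO 3); those higher numbered 1324, and 706 to 1159 (845, 706 and 732 without iKO 1, 2 and 3). Of genes on the nuclear lists, 65 fell and 13 rose. The falls numbered 36 to 54 with a library left out and 39 with library totals. The rises numbered 2 to 8 with a library left out, 20 with DESeq2, 27 with library totals, 22 with at least 5 CPM in 3 libraries, and 23 and 22 with limma on filtered log2(FPKM + 1) and log2(FPKM + 0.1). Library totals moved the median of all genes to 0.156 and gave 1921 higher and 1440 lower genes, against 1324 and 1991.

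Same-numbered libraries did not deviate together (correlations -0.087, -0.0077 and -0.063), and no label says that the numbers mark the 3 pairs of mice, so they were not taken as pairs. With the replicate number as a block, 11 mRNAs fell, 813 genes rose, and 34 list genes fell and 5 rose; paired differences of the 6 neighbour ratios, such as 2.61 for mt-Rnr2 to mt-Nd1, stay as they are by construction.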
